A study of Mus musculus with 8 samples.

Results

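The genes of fatty acid oxidation and the targets of the peroxisome proliferator-activated receptors (PPARs) were described in whole retinas of germ-free mice on a high-fat diet. The group holds 36 genes of 55213 listed. They were taken by gene symbol from a list ordered by role: 3 genes of fatty acid uptake and binding, 6 of the carnitine shuttle, 8 of mitochondrial beta-oxidation, 3 auxiliary enzymes for unsaturated fatty acids, 3 of the electron transfer flavoprotein chain, 2 of peroxisomal oxidation, 2 acyl-CoA thioesterases, 5 PPAR target genes, and 4 PPAR receptors and coactivator. The rule used symbols and roles, not expression values.

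Long-chain fatty acids enter the mitochondrion as carnitine esters. The outer-membrane carnitine palmitoyltransferases 1 make these esters, the translocase carries them across the inner membrane, and carnitine palmitoyltransferase 2 turns them back into acyl-CoA. The spiral of beta-oxidation then cuts the chain into acetyl-CoA, and electrons leave through the electron transfer flavoprotein. PPARs are nuclear receptors that bind fatty acids and, paired with a retinoid X receptor, switch on many of these genes in liver, heart and muscle. In the eye, the pigment epithelium takes up shed photoreceptor outer segments and oxidizes their fatty acids.

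Both groups were male germ-free C57B1/6 mice, 15 weeks old, raised without a microbiome. The 4 GF-HFD mice (13, 15, 16 and 19) ate a high-fat diet with 23% saturated fat for 8 weeks from 7 weeks of age, and the 4 GF-ND mice (9, 10, 11 and 12) ate a normal diet over the same weeks. Each mouse gave 1 library of whole-retina RNA, with 39258006 to 44357518 counts per library. Throughout, values of the GF-HFD mice stand in the order 13, 15, 16 and 19, and those of the GF-ND mice in the order 9, 10, 11 and 12. A level in CPM is a count divided by the TMM-scaled library size. A log2 fold change is positive where the GF-HFD level is the higher one, and its standard error (SE) is that of edgeR's quasi-likelihood fit.

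The libraries differed in RNA of tissues that touch the retina. Transcripts of 18 lens genes made up 0.0274 to 1.37% of counts in GF-HFD libraries, highest in mouse 19, and 0.0224 to 7.61% in GF-ND libraries, highest in mouse 11. The 13 pigment epithelium markers summed to 0.0406 to 0.131% of counts on the high-fat diet, against 0.0407 to 0.204% on the normal diet. Part of each sum is Rlbp1, also on the list of Mueller glia markers, with 363 to 442 CPM in GF-HFD and 316 to 488 CPM in GF-ND libraries. Rpe65 had 4.04 to 53.3 CPM in GF-HFD and 5.95 to 211 CPM in GF-ND libraries. The mean log2 CPM of the 13 markers was 5.34 in GF-HFD mouse 16 and 5.05 in GF-HFD mouse 19, and 5.59 in GF-ND mouse 11, while the highest of the other libraries had 3.20. Rod markers, which define the tissue, had a mean log2 CPM of 11.4 to 11.7 in GF-HFD libraries and 10.7 to 11.3 in GF-ND libraries, lowest in mouse 11. Results were fitted on all 8 libraries and again without GF-ND mouse 11. In whole tissue, fewer cells of a type and less RNA per cell cannot be told apart.

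No member passed the test over all genes. With all 8 libraries, 36 of 36 members were tested and 0 were called at an adjusted p under 0.05 in edgeR, where 0% of the 26900 genes tested were called, and the smallest adjusted p of a member was 0.649. At an unadjusted p under 0.05, 1 member was higher in GF-HFD retinas (2.78% of members, against 2.85% of all genes) and 4 were lower (11.1%, against 4.53%). DESeq2 also called 0 members, with 0 higher and 5 lower at an unadjusted p under 0.05, beside 0.171% and 8.09% of all genes. Limma-voom called 0 members, with 0 higher and 3 lower at that p, beside 0% and 7.38% of all genes. In edgeR with filterByExpr or a filter of 10 CPM in 4 libraries, 0 were higher and 4 lower, beside 8.82% and 8.7% of all genes. The edgeR count of 5 members on 8 libraries, beside 7.38% of all genes, changed with the mice left out. It became 11 without GF-ND mouse 11 (23% of all genes), 3 without GF-HFD mouse 15 (4.62%) and 3 without GF-HFD mouse 16 (5.38%). It was 2 without GF-HFD mouse 19 (5.69%), 3 without GF-ND mouse 10 (4.99%) and 2 without GF-ND mouse 12 (6.1%). The count stayed at 5 without GF-HFD mouse 13 (6.7%), without GF-ND mouse 9 (6.62%), and without mice 11, 16 and 19 (15.6%).

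Fitted changes were small and mixed in sign. The fitted value was positive for 23 members and negative for 13, with a median log2 fold change of 0.09 over the members and -0.03 over all genes tested. For 32 members it lay within 0.5 of 0. The members outside that band were Cpt1b below it, and Ucp2, Pdk4 and Pparg above it. The diets did not overlap for 2 members, both lower in GF-HFD retinas (5.56%, against 2.54% of all genes), and for 0 members in the other direction (against 2.29% of all genes).

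Without GF-ND mouse 11 the fit called 1.6% of 26338 genes and again 0 members in edgeR, with a smallest adjusted p of 0.0545 for Cpt1b. At an unadjusted p under 0.05, 7 members were higher (19.4%, against 12.1% of all genes) and 4 were lower (11.1%, against 11% of all genes). DESeq2 on these 7 libraries called 5 members, Acaa2 on the higher side and Acadvl, Cpt1b, Cpt1c and Slc27a1 on the lower side, beside 10% of all genes (2642), and had 12 members at an unadjusted p under 0.05, beside 22%. Limma-voom called 0 members, beside 1.29% of all genes (341), and had 13 at an unadjusted p under 0.05, beside 22.6%. The diets then did not overlap for 3 members higher in GF-HFD retinas, Eci1, Eci2 and Acot2 (8.33%, against 9.67% of all genes), and for 3 lower, Cpt1b, Cpt1c and Acadvl (8.33%, against 10.5%). The median fold change of the members was 0.17, and that of all genes was 0.01.

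**Figure D1:**
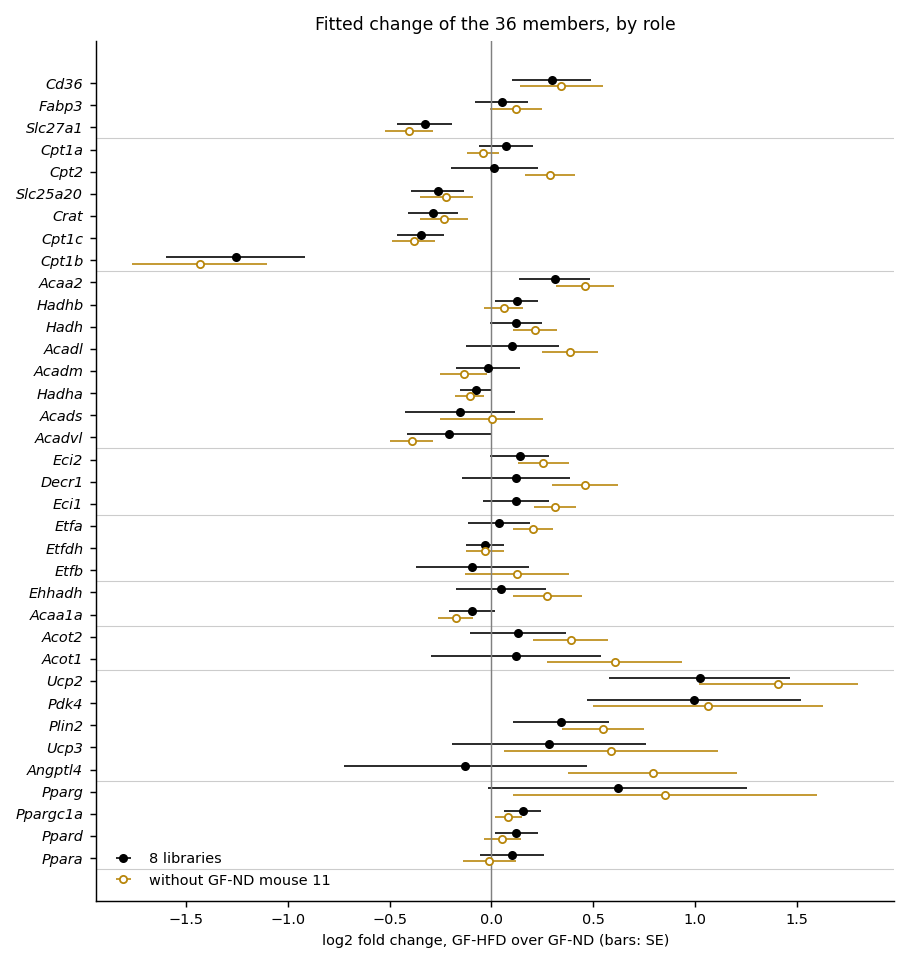
Log2 fold changes of the 36 members, GF-HFD over GF-ND, in rows grouped by role (grey lines part the roles). Black points are the fit on 8 libraries, open points the fit without GF-ND mouse 11, and bars are SEs. In the fit on 8 libraries Cpt1b lies farthest to the left at -1.26 and Ucp2 farthest to the right at 1.02. Cpt1a, Acads, Etfb, Angptl4 and Ppara change sign between the fits.

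Per length, the retina carried these genes at very unequal levels. Carnitine palmitoyltransferase Cpt1a led, with 32.1 CPM per kilobase in GF-HFD retinas, against 30.5 in GF-ND retinas. Next came the medium-chain and very-long-chain acyl-CoA dehydrogenases Acadm, with 27.9 CPM per kilobase in GF-HFD retinas, against 28.3 in GF-ND retinas, and Acadvl, with 22.4 CPM per kilobase in GF-HFD retinas, against 25.9 in GF-ND retinas. The lowest was Pparg, with 0.0698 CPM per kilobase in GF-HFD retinas, against 0.0451 in GF-ND retinas. Ucp3 had 0.112 CPM per kilobase in GF-HFD retinas, against 0.0922 in GF-ND retinas, and Cpt1b had 0.113 CPM per kilobase in GF-HFD retinas, against 0.272 in GF-ND retinas. The Cpt1b level is divided by its full exon length, of which 81.4% is shared with exons of another gene model on the same strand. In all, 24 members reached 10 CPM in at least 4 libraries, and 4 had a mean under 1 CPM in both diets: Cpt1b, Pdk4, Ucp3 and Pparg. The least covered member, Pparg, had 57 counts over the 8 libraries, and the median member had 5981.5.

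**Figure D2:**
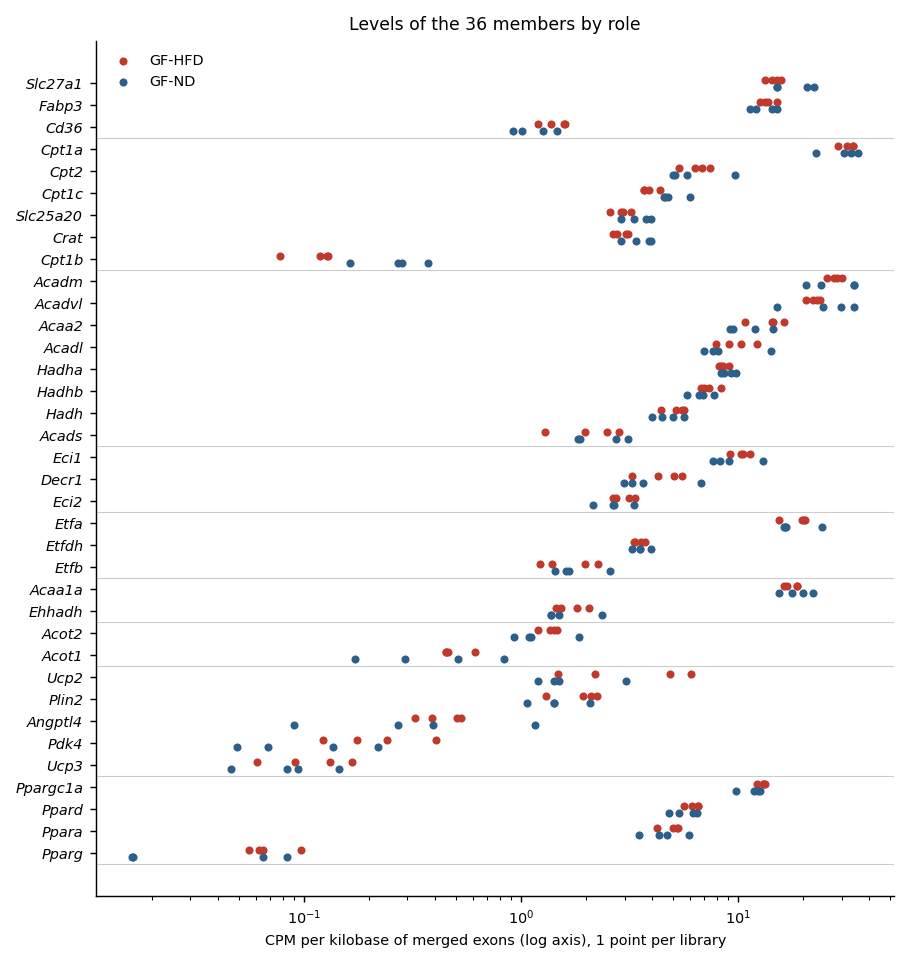
Levels of the 36 members per kilobase of merged exons, on a log axis, with 1 point per library, GF-HFD above GF-ND in each row and rows grouped by role. Cpt1a, Acadm and Acadvl lie at the right, and Pparg, Ucp3, Cpt1b and Pdk4 at the left.

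Promoter sequences show which members carry the letters of a PPAR response element near their start. RefSeq promoter windows on GRCm38.p6, 250 bases before to 50 after the start site, were found for 31 of 36 members in 35 windows. The element was searched as AGGTCA, 1 base, AGGTCA on both strands. It was present without mismatch in 0 of 35 member windows, and in 0.0396% of all 32851 windows. With up to 2 mismatches it was in 5 member windows (14.3%, against 3.86% of all). The motif AGGTCA alone, which every exact copy of the element also contains, was in 9 member windows (25.7%, against 16.3%). The 5 matches, read 5′ to 3′ along the strand of the gene with 10 bases on each side, are shown because they belong to a lipid droplet gene, a fatty acid transporter, an uncoupling protein, a flavoprotein subunit and the carnitine translocase. Capitals are the bases that fit the element, which reads on the opposite strand in Plin2, Cd36 and Etfa.
Plin2 chr4:86670272-86670284: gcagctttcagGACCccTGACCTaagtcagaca
Cd36 chr5:17835947-17835959: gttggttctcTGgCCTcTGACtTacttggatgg
Ucp3 chr7:100472940-100472952: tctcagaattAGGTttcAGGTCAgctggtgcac
Etfa chr9:55512308-55512320: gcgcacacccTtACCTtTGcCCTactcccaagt
Slc25a20 chr9:108662142-108662154: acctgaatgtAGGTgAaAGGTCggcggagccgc
The match lay 225 bases before the RefSeq start site in Plin2, 77 in Etfa, 63 in Cd36 and 51 in Ucp3, and 6 bases after it in Slc25a20. The RefSeq start site of Cd36 lies inside its GENCODE vM21 gene (chr5:17781690-17888801, minus strand), away from the outer end of that gene. None of these 5 genes had an unadjusted p under 0.05 in the fit on 8 libraries. Without GF-ND mouse 11, Plin2 had one, at an unadjusted edgeR p of 0.0195, and the other 4 did not. A match is a description of letters, not of binding.

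The whole windows of Plin2, Cpt1c and Ucp2 are shown as the classical lipid droplet target, the member with a window whose diets did not overlap, and the member with the largest positive fitted change. Capitals mark AGGTCA or its reverse complement.
Plin2 promoter: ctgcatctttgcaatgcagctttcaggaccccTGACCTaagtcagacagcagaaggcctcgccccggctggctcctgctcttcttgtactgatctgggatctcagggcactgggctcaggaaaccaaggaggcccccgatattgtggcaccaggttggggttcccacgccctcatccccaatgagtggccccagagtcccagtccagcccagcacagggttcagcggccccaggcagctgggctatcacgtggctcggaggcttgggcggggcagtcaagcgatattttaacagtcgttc
Cpt1c promoter: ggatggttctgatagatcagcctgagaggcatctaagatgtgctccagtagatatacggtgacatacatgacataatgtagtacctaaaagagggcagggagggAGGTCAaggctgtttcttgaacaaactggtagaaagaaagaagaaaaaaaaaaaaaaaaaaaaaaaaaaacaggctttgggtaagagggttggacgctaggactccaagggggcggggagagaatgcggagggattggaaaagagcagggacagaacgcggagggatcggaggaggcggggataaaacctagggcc
Ucp2 promoter: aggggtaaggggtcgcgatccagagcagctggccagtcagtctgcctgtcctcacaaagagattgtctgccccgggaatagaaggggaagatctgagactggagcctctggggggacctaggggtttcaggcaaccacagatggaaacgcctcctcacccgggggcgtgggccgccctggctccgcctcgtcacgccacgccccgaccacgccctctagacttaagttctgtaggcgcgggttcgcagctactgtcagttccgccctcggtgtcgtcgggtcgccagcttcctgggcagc
These windows are on the minus strand at chr4:86670010-86670309 for Plin2, the minus strand at chr7:44974802-44975101 for Cpt1c, and the plus strand at chr7:100493108-100493407 for Ucp2. This motif stands in the Plin2 and Cpt1c windows and not in that of Ucp2. The alpha and beta subunits of the trifunctional protein, Hadha and Hadhb, start 273 bases apart on opposite strands, and their windows share 228 bases.

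Among the genes of uptake and binding, 1 of 3 was lower at an unadjusted p under 0.05 on 8 libraries, beside 4.53% of all genes. Slc27a1, a fatty acid transport protein with acyl-CoA synthetase activity, had 91.7, 77.7, 87.7 and 83.9 CPM in GF-HFD retinas, against 88.4, 131, 87.9 and 121 CPM in GF-ND retinas. GF-ND mice 10 and 12 stood above all other mice, and GF-ND mice 9 and 11 lay within the GF-HFD range, so the diets overlapped. Its log2 fold change was -0.33 (SE 0.14), at an unadjusted edgeR p of 0.0368 and an adjusted p of 0.649. Leaving out GF-ND mouse 11 gave -0.41 (SE 0.12), with an adjusted p of 0.0871 in edgeR.

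The other uptake genes had fitted values above 0 that did not pass. Cd36, the scavenger receptor that takes up long-chain fatty acids, had 5.64, 4.94, 4.3 and 5.7 CPM in GF-HFD retinas, against 5.26, 3.3, 4.55 and 3.64 CPM in GF-ND retinas. A fitted log2 fold change of 0.30 (SE 0.19) went with overlap, as GF-ND mouse 9 lay above 2 of the GF-HFD mice. Fabp3, the heart-type fatty acid-binding protein, averaged 11.3 ± 0.856 CPM on the high-fat diet, against 10.9 ± 1.47 CPM on the normal diet (SD, n = 4 each). Of its exon bases 19.6% overlap antisense genes, and 21.7% of its 100-base windows are shared with the pseudogene Fabp3-ps1. These genes beyond the naming rule were singled out after their values were seen.

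The carnitine shuttle held 3 of the 5 members with an unadjusted p under 0.05 in the fit on 8 libraries. All 3 were lower in GF-HFD retinas, beside 4.53% of all genes. Without GF-ND mouse 11 the shuttle had 2 lower and 1 higher, beside 11% and 12.1% of all genes. On 8 libraries its median log2 fold change over 6 genes was -0.28. Carnitine palmitoyltransferase 1, the gate of the shuttle, has 3 isoforms. Cpt1a, known as the liver isoform and the most abundant one here, had 243, 257, 259 and 221 CPM in GF-HFD retinas, against 234, 273, 174 and 252 CPM in GF-ND retinas. The diets overlapped, GF-ND mouse 11 was the lowest of the 8, and the log2 fold change was 0.07 (SE 0.13). It was -0.04 (SE 0.08) without that mouse, a change of sign.

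Cpt1b, known as the muscle isoform, had 18, 11, 19 and 17 counts in GF-HFD retinas, against 52, 37, 23 and 40 counts in GF-ND retinas. All 4 GF-HFD mice lay below all 4 GF-ND mice, of which mouse 11 was the lowest. Scaled, these were 0.43, 0.261, 0.435 and 0.402 CPM for GF-HFD, against 1.25, 0.911, 0.548 and 0.957 CPM for GF-ND. The log2 fold change was -1.26 (SE 0.34), with an unadjusted edgeR p of 0.00413, an adjusted p of 0.649 and an exact permutation p of 0.0286, the smallest that 70 arrangements allow. Leaving out GF-ND mouse 11 gave -1.43 (SE 0.33). Over the 18 alternatives in which it was tested it ran from -1.57 to -1.07.

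Several measurements bear on the Cpt1b counts. The level is low, and 81.4% of its exon bases at chr15:89416405-89425863 (GRCm38, minus strand) are shared with exons of the gene model Gm44502 on the same strand, which had 0 counts in all 8 libraries. Whether reads in bases shared by a pair of genes were counted is not given in the sources used here, so the counts may cover only part of Cpt1b. Skeletal muscle markers had their highest mean log2 CPM, 1.10, in GF-HFD mouse 13, and -0.89 or less in the other 7 libraries. Cpt1b had 18 counts in mouse 13, within the range of the other GF-HFD mice. The part of counting in the difference was not tested.

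Cpt1c, known as the brain isoform found in the endoplasmic reticulum of neurons, had 20.7, 20.6, 24.5 and 21.9 CPM in GF-HFD retinas, against 25.7, 33.7, 25.6 and 26.5 CPM in GF-ND retinas. The diets did not overlap here either, and GF-ND mouse 10 stood above the other 3 of its group. Fitted, this was a log2 fold change of -0.35 (SE 0.12), with an unadjusted edgeR p of 0.0129, an adjusted p of 0.649 and an exact permutation p of 0.0286. It was -0.38 (SE 0.11) without GF-ND mouse 11, with an adjusted p of 0.0812. Its gene lies at chr7:44959372-44974851, and 6.53% of its exon bases overlap the antisense gene 6530437J22Rik, which had 0 to 6 counts per library.

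Later steps of the shuttle gave fitted values on both sides of 0. Crat, the carnitine acetyltransferase that buffers acetyl-CoA, had 16.4, 14.3, 16.7 and 15 CPM in GF-HFD retinas, against 15.6, 21.4, 20.9 and 18.2 CPM in GF-ND retinas. The diets overlapped through GF-ND mouse 9, and the log2 fold change was -0.29 (SE 0.12) with an unadjusted edgeR p of 0.0421. In the fit on 7 libraries the p was 0.0744. Slc25a20, the carnitine-acylcarnitine translocase, averaged 14 ± 1.27 CPM on the high-fat diet, against 16.9 ± 2.33 CPM on the normal diet (SD, n = 4 each), with a log2 fold change of -0.26 (SE 0.13). Cpt2, on the inner membrane, had 12.8, 15.2, 17.7 and 16.2 CPM in GF-HFD retinas, against 12, 13.9, 23.2 and 12.3 CPM in GF-ND retinas. GF-ND mouse 11 was the highest of the 8, and the log2 fold change was 0.01 (SE 0.21) with it and 0.29 (SE 0.12) without it, where the unadjusted edgeR p was 0.0393.

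**Figure D3:**
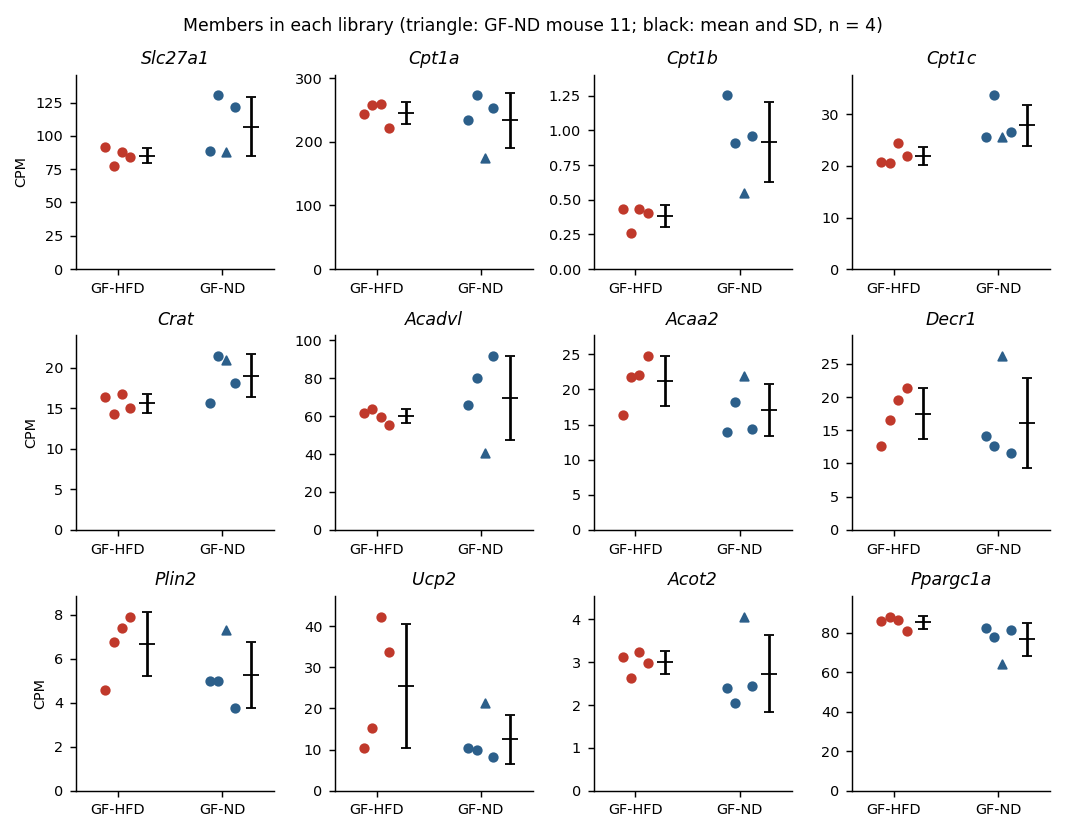
CPM of 12 members in each library, GF-HFD left of GF-ND, with 1 point per mouse, the mean and SD in black (n = 4 each), and GF-ND mouse 11 as a triangle. The diets do not overlap for Cpt1b and Cpt1c. The triangle is the lowest GF-ND point for Slc27a1, Cpt1a, Cpt1b, Cpt1c, Acadvl and Ppargc1a and the highest for Acaa2, Decr1, Plin2, Ucp2 and Acot2.

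In the mitochondrial spiral, 0 of 8 members had an unadjusted p under 0.05 with all libraries, beside 7.38% of all genes. Without GF-ND mouse 11, 2 were higher and 1 lower at that p, beside 12.1% and 11% of all genes. The first step is shared by acyl-CoA dehydrogenases of different chain lengths. Acadvl, for very long chains, had 61.8, 63.9, 59.5 and 55.4 CPM in GF-HFD retinas, against 65.8, 80.2, 40.5 and 91.6 CPM in GF-ND retinas. GF-ND mouse 11 was the lowest of the 8 mice, and the other 3 GF-ND mice lay above all GF-HFD mice. The log2 fold change was -0.21 (SE 0.20) with mouse 11 and -0.39 (SE 0.10) without it, where the adjusted edgeR p was 0.075. Of the Acadvl exon bases 42.9% overlap the antisense gene Dvl2, which had 868 to 1164 counts per library, and the strand setting of the counting is not given in the sources used here.

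The long-chain enzyme Acadl had fitted values above 0. It had 15.9, 18.2, 24.6 and 20.6 CPM in GF-HFD retinas, against 15.4, 13.9, 28.3 and 16.3 CPM in GF-ND retinas, highest in GF-ND mouse 11. Its fitted log2 fold change was 0.10 (SE 0.23) with all libraries and 0.39 (SE 0.14) without that mouse, with an unadjusted edgeR p of 0.0178. Acadm, whose loss is a common inherited defect of fatty acid oxidation in humans, had 111, 117, 108 and 100.8 CPM in GF-HFD retinas, against 134, 134, 80.4 and 94.2 CPM in GF-ND retinas. GF-ND mice 9 and 10 were the highest and GF-ND mouse 11 the lowest, and the log2 fold change was -0.02 (SE 0.16). The short-chain enzyme Acads averaged 4.85 ± 1.5 CPM on the high-fat diet, against 5.41 ± 1.43 CPM on the normal diet (SD, n = 4 each), also without a difference beyond its SE.

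The last steps belong to the trifunctional protein and the thiolases. Acaa2, the mitochondrial 3-ketoacyl-CoA thiolase, had 16.4, 21.8, 22.1 and 24.7 CPM in GF-HFD retinas, against 13.9, 18.2, 21.9 and 14.4 CPM in GF-ND retinas. GF-HFD mouse 19 was the highest, and GF-HFD mice 13 and 15 lay inside the GF-ND range. Fitted on 8 libraries, the log2 fold change was 0.31 (SE 0.17), and it was 0.46 (SE 0.14) without GF-ND mouse 11, with an adjusted edgeR p of 0.103. Hadha averaged 74.3 ± 3.42 CPM on the high-fat diet, against 78.4 ± 5.67 CPM on the normal diet (SD, n = 4 each). Hadhb, its partner subunit, averaged 48.6 ± 4.77 CPM on the high-fat diet, against 44.6 ± 5.42 CPM on the normal diet (SD, n = 4 each), and 14.8% of its windows are shared with other loci, mostly Gm13910. Their log2 fold changes were -0.08 (SE 0.08) for Hadha and 0.12 (SE 0.11) for Hadhb, and that of the short-chain dehydrogenase Hadh was 0.12 (SE 0.13).

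The auxiliary enzymes that move or reduce double bonds of unsaturated acyl chains had fitted values above 0 in both fits. These log2 fold changes were 0.12 to 0.14 with all libraries and 0.26 to 0.46 without GF-ND mouse 11. Decr1, the dienoyl-CoA reductase, had 12.6, 16.5, 19.6 and 21.4 CPM in GF-HFD retinas, against 14.1, 12.6, 26.1 and 11.6 CPM in GF-ND retinas. Mouse 11 was the highest of all, and GF-HFD mice 15, 16 and 19 came next. Its log2 fold change was 0.12 (SE 0.26) with mouse 11 and 0.46 (SE 0.16) without it, with an unadjusted edgeR p of 0.0168.

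Eci1 and Eci2 are isomerases that shift a double bond to where the spiral can use it. Eci1 had 19.4, 22, 24 and 22.3 CPM in GF-HFD retinas, against 17.6, 16.2, 27.7 and 19.2 CPM in GF-ND retinas. Eci2 had 14.7, 17.4, 15.1 and 18.6 CPM in GF-HFD retinas, against 14.9, 11.9, 18.3 and 14.7 CPM in GF-ND retinas. Leaving mouse 11 aside, the GF-ND mice lay below all GF-HFD mice for Eci1. For Eci2, GF-ND mouse 9 lay level with GF-HFD mouse 13, and the diets did not overlap only with the scaling factors recomputed without mouse 11. In that fit the log2 fold change was 0.31 (SE 0.10) for Eci1, with an unadjusted edgeR p of 0.0106, and 0.26 (SE 0.13) for Eci2, with a p of 0.0698.

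Electron transfer and peroxisomal genes had 0 members with an unadjusted p under 0.05 in either edgeR fit. Etfa, the alpha subunit of the electron transfer flavoprotein, had 28.2, 37.2, 36.3 and 37 CPM in GF-HFD retinas, against 30.5, 29.8, 44.8 and 30.2 CPM in GF-ND retinas. GF-ND mouse 11 was the highest and GF-HFD mouse 13 the lowest, and the log2 fold change was 0.04 (SE 0.15). Etfb averaged 1.99 ± 0.566 CPM on the high-fat diet, against 2.13 ± 0.596 CPM on the normal diet (SD, n = 4 each), and 58.2% of its exon bases are shared with Gm45233 of GENCODE vM21 on the same strand. Etfdh, which passes the electrons to ubiquinone, had a log2 fold change of -0.03 (SE 0.09). In the peroxisome, where very long chains are shortened first, the thiolase Acaa1a had 82.4, 73.8, 82.5 and 71.8 CPM in GF-HFD retinas, against 78.3, 97.4, 68 and 88.3 CPM in GF-ND retinas, lowest in GF-ND mouse 11, with a log2 fold change of -0.10 (SE 0.11). The bifunctional enzyme Ehhadh averaged 5.09 ± 0.83 CPM on the high-fat diet, against 4.93 ± 1.43 CPM on the normal diet (SD, n = 4 each).

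The thioesterases Acot1 and Acot2, which release free fatty acids from acyl-CoA in the cytosol and the mitochondrion, are paralogs and neighbours on chromosome 12. Of their 100-base windows, 12.4% in Acot1 and 17.1% in Acot2 are shared with paralogs, so reads may be divided between them. Acot1 had 1.77, 1.81, 2.4 and 1.77 CPM in GF-HFD retinas, against 0.675, 2.02, 3.29 and 1.15 CPM in GF-ND retinas. GF-ND mice ran from the lowest value, in mouse 9, to the highest, in mouse 11, and the log2 fold change was 0.12 (SE 0.42). Acot2 had 3.13, 2.64, 3.23 and 2.98 CPM in GF-HFD retinas, against 2.39, 2.04, 4.05 and 2.44 CPM in GF-ND retinas. Apart from mouse 11, every GF-ND mouse lay below every GF-HFD mouse, and the log2 fold change was 0.13 (SE 0.24) with mouse 11 and 0.39 (SE 0.18) without it.

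The 5 PPAR targets among the members had the highest median of any role, 0.34, with wide SEs. Other PPAR targets, on the further lists described below, had a median of -0.10. Of the 15 tested there, 5 had a positive fitted value and 10 a negative one. Ucp2, an uncoupling protein of the inner membrane, had 10.4, 15.3, 42.2 and 33.8 CPM in GF-HFD retinas, against 10.5, 9.9, 21.4 and 8.33 CPM in GF-ND retinas. GF-HFD mice 16 and 19 were the highest, GF-ND mouse 11 came next, and the remaining 5 mice, 2 GF-HFD and 3 GF-ND, lay between 8.33 and 15.3 CPM. The log2 fold change was 1.02 (SE 0.44), with an unadjusted edgeR p of 0.0435 and an exact permutation p of 0.2. On the same libraries Ucp2 had no unadjusted p under 0.05 in DESeq2 or limma-voom. Nor did it in edgeR with filterByExpr or a filter of 10 CPM in 4 libraries. Leaving out GF-ND mouse 11 gave a log2 fold change of 1.41 (SE 0.39), with an adjusted edgeR p of 0.0812. Without GF-ND mouse 11 and GF-HFD mouse 13 Ucp2 was called, at 1.65 and an adjusted edgeR p of 0.024, beside 3.32% of all genes called. These were the GF-ND mouse with the most Ucp2 and the GF-HFD mouse with the least.

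The 3 libraries with the most Ucp2 were those with the highest mean of the pigment epithelium markers. Single markers differed. Rpe65, Rlbp1, Lrat, Rdh5, Ttr and Rgr were lower in mouse 19 than in GF-HFD mouse 15 (Rpe65 22.5 against 35.3 CPM). Best1, Tyr, Tyrp1, Dct, Pmel, Slc45a2 and Mlana were higher in mouse 19 (Dct 226 against 11.3 CPM). Ciliary body and iris markers had a mean log2 CPM of 3.72 in mouse 16, 3.89 in mouse 19 and 2.6 in mouse 11. Without GF-HFD mice 16 and 19 and GF-ND mouse 11, a comparison chosen after seeing the data, the log2 fold change of Ucp2 was 0.44, with an unadjusted edgeR p of 0.0383 and an adjusted p of 0.299. Leaving out 1 mouse gave 0.66 without GF-HFD mouse 16 and 0.86 without GF-HFD mouse 19. Fibroblast markers were also highest in these GF-HFD mice, with a mean log2 CPM of 3.51 in mouse 16 and 3.74 in mouse 19, against 2.21 in GF-ND mouse 11. The 12 fibroblast markers summed to 0.00414 to 0.0351% of counts on the high-fat diet, against 0.00603 to 0.0247% on the normal diet, and 8 of 12 had a positive fitted value. The part of these cells in the Ucp2 values was not tested.

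Mice 11, 16 and 19 were the 3 highest libraries for 9 of 36 members (25%, against 6.08% of all genes tested). These were Cpt2, Acadl, Hadh, Acaa2, Eci1, Decr1, Plin2, Ucp2 and Ucp3. The 7 members that were higher at an unadjusted p under 0.05 without GF-ND mouse 11 are all among these 9. This overlap is partly fixed in advance, because leaving out mouse 11 removes a high GF-ND value from each of the 9. The 3 mice were also picked after seeing the data, and Ucp2 is among the 9, so no conclusion is drawn from the overlap. Of the 13 pigment epithelium markers, 13 had a positive fitted value without GF-ND mouse 11, with a median of 1.75, beside 13428 of 26338 genes. With all libraries 7 of 13 had one, with a median of 0.08. The pigment list was not alone in this. Without mouse 11, 17 of 17 lens markers (median 2.18), 11 of 12 fibroblast markers (1.92) and 9 of 9 Mueller glia and ganglion cell markers each were positive. Of cone markers 6 of 10 were, and of adipocyte markers 2 of 5. GF-ND mouse 11 alone was the highest of the 8 for 11 members (30.6%, against 21% of all genes) and the lowest for 8 (22.2%, against 18%).

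**Figure D4:**
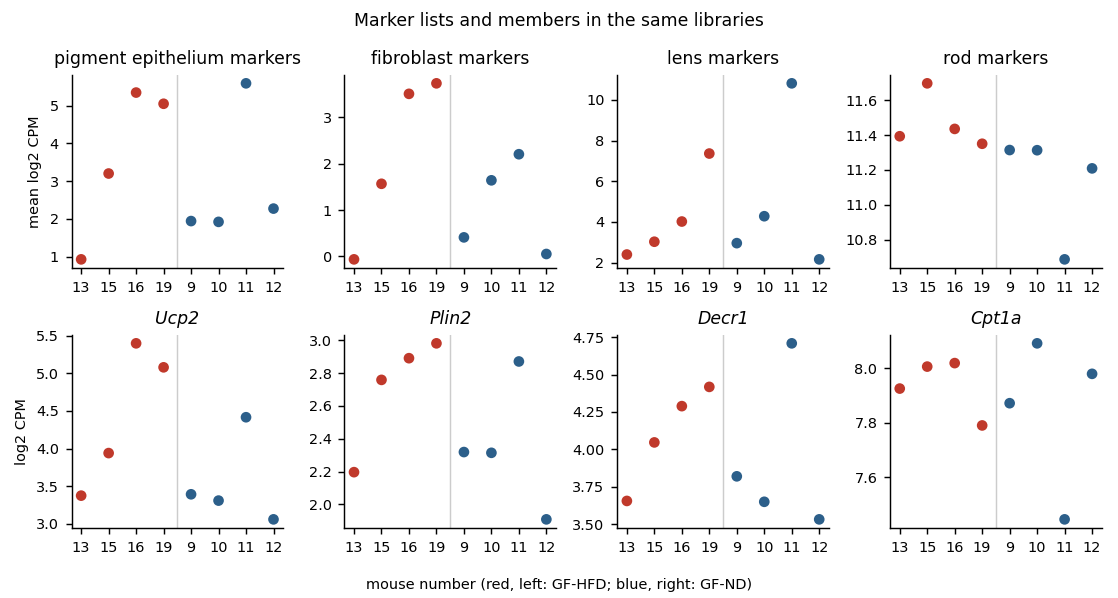
Mean log2 CPM of pigment epithelium, fibroblast, lens and rod markers (top row) and log2 CPM of Ucp2, Plin2, Decr1 and Cpt1a (bottom row) in each mouse, GF-HFD in red left of GF-ND in blue. Ucp2, Plin2 and Decr1 are high in mice 16, 19 and 11, where the mean of the pigment epithelium markers is high. Cpt1a is lowest in mouse 11, where rod markers are also lowest.

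The other targets had values on both sides. Plin2, the coat protein of lipid droplets, had 4.58, 6.77, 7.42 and 7.9 CPM in GF-HFD retinas, against 4.99, 4.97, 7.31 and 3.76 CPM in GF-ND retinas. GF-HFD mice 13 and 15 lay within the GF-ND range, and the log2 fold change was 0.34 (SE 0.24), or 0.55 (SE 0.20) without GF-ND mouse 11, where the adjusted edgeR p was 0.143. Pdk4, the kinase that turns off pyruvate dehydrogenase, had 0.43, 0.617, 1.42 and 0.851 CPM in GF-HFD retinas, against 0.771, 0.172, 0.477 and 0.239 CPM in GF-ND retinas, with a log2 fold change of 0.99 (SE 0.53). It was highest in GF-HFD mouse 16, and GF-ND mouse 9 lay above 2 of the GF-HFD mice. Angptl4, a secreted inhibitor of lipoprotein lipase, had 1.15, 1.81, 1.88 and 1.37 CPM in GF-HFD retinas, against 0.964, 0.32, 4.1 and 1.39 CPM in GF-ND retinas. GF-ND mouse 11 had more than any other mouse, and the log2 fold change was -0.13 (SE 0.60) with it and 0.79 (SE 0.42) without it. Ucp3 averaged 0.352 ± 0.144 CPM on the high-fat diet, against 0.289 ± 0.127 CPM on the normal diet (SD, n = 4 each).

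The 8 adipocyte markers summed to 0.00173 to 0.00215% of counts in GF-HFD libraries, against 0.00153 to 0.00289% in GF-ND libraries, and 5 of 8 passed the count filter. Fabp4 had 6.07 to 10.5 CPM in GF-HFD retinas, against 4.15 to 13.3 CPM in GF-ND retinas. Lipe had 9.77 to 10.5 CPM in GF-HFD retinas, against 8.7 to 11.8 CPM in GF-ND retinas. Retn had 0.979 to 1.84 CPM in GF-HFD retinas, against 1.55 to 3.25 CPM in GF-ND retinas. The other 5 markers, Adipoq, Lep, Plin1, Cidec and Cfd, had at most 0.332 CPM in GF-HFD retinas and 0.335 CPM in GF-ND retinas. The part of fat cells in the values of these targets was not tested.

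No receptor had an unadjusted p under 0.05 in either edgeR fit. Ppara, the receptor of fasting and fat oxidation in liver, had 20.03, 20.2, 19.2 and 16.3 CPM in GF-HFD retinas, against 18.1, 16.6, 13.4 and 22.7 CPM in GF-ND retinas, with a log2 fold change of 0.10 (SE 0.16). Ppard, the broadly expressed receptor, had 49, 48.9, 42.3 and 46.1 CPM in GF-HFD retinas, against 40.1, 46.6, 36.1 and 48.5 CPM in GF-ND retinas, with 0.12 (SE 0.11). Pparg, the receptor of fat cells, had 8, 12, 8 and 7 counts in GF-HFD retinas, against 2, 10, 8 and 2 counts in GF-ND retinas, too few for a narrow estimate, and its log2 fold change was 0.62 (SE 0.64). Their levels per kilobase ran in the order Ppard, Ppara and Pparg, with 6.2, 4.94 and 0.0698 CPM per kilobase in GF-HFD retinas. The coactivator Ppargc1a, which drives mitochondrial genes, had 86.2, 88, 86.4 and 80.9 CPM in GF-HFD retinas, against 82.8, 78.2, 64.4 and 81.6 CPM in GF-ND retinas. GF-ND mouse 11 was the lowest, and the log2 fold change was 0.15 (SE 0.09) with it and 0.08 (SE 0.07) without it.

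Further genes of the same pathways were taken from lists ordered by role, 110 genes of which 105 were tested. With all 8 libraries 0 were called by edgeR, DESeq2 and limma-voom. At an unadjusted edgeR p under 0.05, 6 were higher and 3 lower, beside 2.85% and 4.53% of all genes, with a median log2 fold change of 0.05. DESeq2 gave 10 at this threshold, beside 8.09% of all genes, and limma-voom 8, beside 7.38%. Without GF-ND mouse 11, 30 of 104 were higher and 8 lower in edgeR, beside 12.1% and 11% of all genes, and the median was 0.12. On those 7 libraries edgeR called 0 of 104, beside 1.6% of all genes, DESeq2 17, beside 10%, and limma-voom 0, beside 1.29%. At an unadjusted p under 0.05 DESeq2 had 36, beside 22% of all genes, and limma-voom 34, beside 22.6%. The edgeR total of 9 on 8 libraries also became 3 without GF-HFD mouse 15 (4.62% of all genes) and 5 without GF-HFD mouse 16 (5.38%).

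Ketone bodies are a fuel made from fatty acids, and genes of their use and transport were on these lists. Oxct1, which activates acetoacetate for use as fuel, had 89.96, 109, 116 and 115 CPM in GF-HFD retinas, against 83.7, 82.1, 86.4 and 88.3 CPM in GF-ND retinas. Every GF-HFD mouse lay above every GF-ND mouse, and the log2 fold change was 0.34 (SE 0.09), with an unadjusted edgeR p of 0.00407 and an adjusted p of 0.649. Slc16a1, the monocarboxylate carrier MCT1 for lactate and ketone bodies, had 293, 329, 299 and 276 CPM in GF-HFD retinas, against 265, 258, 257 and 226 CPM in GF-ND retinas. Here too the diets did not overlap, and the log2 fold change was 0.25 (SE 0.09).

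Elsewhere in the lists single genes met the same threshold in both fits. Acat1, the thiolase that splits acetoacetyl-CoA, had 48.4, 57.6, 61.5 and 57.6 CPM in GF-HFD retinas, against 43.4, 38, 53.6 and 47 CPM in GF-ND retinas, with a log2 fold change of 0.31 (SE 0.12) and overlap only through GF-HFD mouse 13 and GF-ND mouse 11. Acsl3, an acyl-CoA synthetase of lipid droplets, averaged 436 ± 15.8 CPM on the high-fat diet, against 382 ± 21.9 CPM on the normal diet (SD, n = 4 each). Its diets did not overlap, at a log2 fold change of 0.19 (SE 0.08). Amacr, the racemase for branched chains, averaged 14.8 ± 1.28 CPM on the high-fat diet, against 11.8 ± 0.848 CPM on the normal diet (SD, n = 4 each), with a log2 fold change of 0.32 (SE 0.11) and no overlap. The transporter Slc27a3 had a log2 fold change of -0.48 (SE 0.20), on the same side as Slc27a1. Rxra, the partner with which PPARs bind DNA, averaged 74.2 ± 5.14 CPM on the high-fat diet, against 63.6 ± 4.2 CPM on the normal diet (SD, n = 4 each), with a log2 fold change of 0.22 (SE 0.08). The adjusted edgeR p-value of each gene in this paragraph was 0.649 on 8 libraries.

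**Figure D5:**
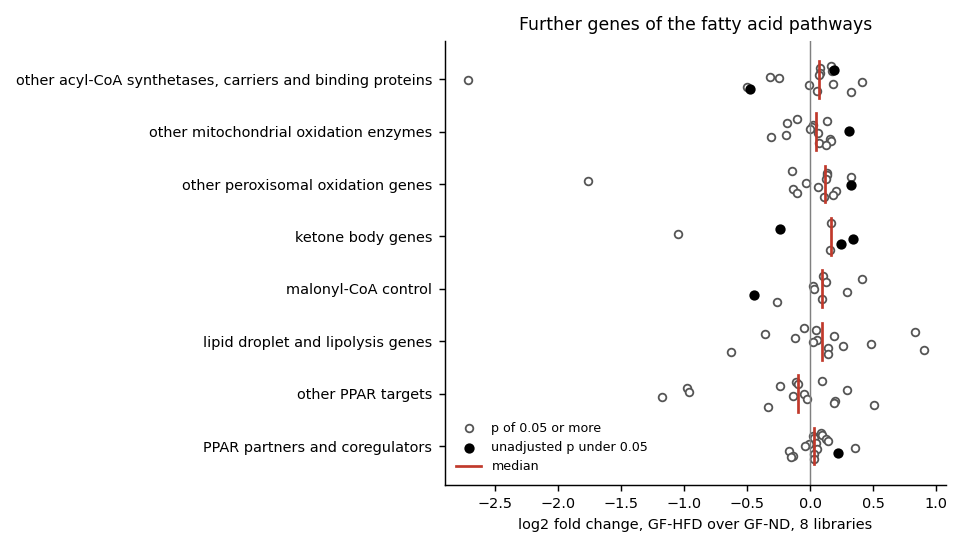
Log2 fold changes (GF-HFD over GF-ND, 8 libraries) of the further pathway genes, 1 point per gene tested, in rows by list. Filled points have an unadjusted edgeR p under 0.05 (6 above 0 and 3 below), open points do not, and red lines are list medians, from -0.10 for other PPAR targets to 0.16 for ketone body genes.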

How the data were processed

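Whole-retina RNA of 8 mice was measured, 1 library each. Paired-end reads were aligned by the authors to GRCm38 with STAR 2.4.2, and featureCounts (Subread 1.4.6-p1) gave counts per gene. The deposited values are unscaled, unfiltered counts. Among low counts, even values outnumbered odd ones 1.91 to 2.36 times. Whether both reads of a pair were counted separately is not given in the sources used here. Low counts, as in Pparg and Cpt1b, may therefore stand for fewer fragments. Library totals were 39258006 to 44357518.

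Diets were compared with edgeR 4.0.16 in R 4.3.3 (TMM factors, quasi-likelihood test, a minimum of 10 counts summed over libraries, Benjamini-Hochberg over all genes tested, threshold 0.05) on 8 libraries and without GF-ND mouse 11. Log2 CPM used a prior count of 2. Two-sided exact permutation tests of log2 CPM had 70 arrangements, with a smallest p of 0.0286. Without 1 library there were 35, with the same smallest p. Members and lists were chosen by role, with earlier results of these data known. Values in every mouse are printed for members with an unadjusted p under 0.05 or diets that do not overlap in either fit, for the highest per length in each role, and for paralogs and receptors. Pathway genes are named where both fits gave such a p, and some of these are not reported here. Cd36, Fabp3, Hadha, Hadhb, Pdk4, Angptl4 and others outside this rule were named after their values were seen. Gene positions and lengths are from GENCODE vM21, and the study counted on a later release. The scripts were tested on simulated data.

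Alternatives were RLE factors, library totals, no filter, filterByExpr, 10 CPM in 4 libraries, DESeq2 1.42.0, limma-voom 3.58.1, a lens score as covariate, each mouse left out, and sets of mice left out. The comparison of paralog proteins was not run, since protein sequences were not used here.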

Additional observations from a re-analysis of the deposited data

Results flagged for a closer look

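Among 72 groups of 4 mice, 6 held 1 mouse far from the other 3, and 2 of the 6 were GF-ND mouse 11. Chance flags about 1 in 20 such groups. Cpt1b was 0.261 CPM in GF-HFD mouse 15, while the other GF-HFD mice had 0.402 to 0.435. Cpt1c was 33.7 CPM in GF-ND mouse 10, with 25.6 to 26.5 in the other GF-ND mice. Etfa was 28.2 CPM in GF-HFD mouse 13, below 36.3 to 37.2 in the rest of its group, and 44.8 CPM in GF-ND mouse 11, above 29.8 to 30.5. Ehhadh reached 7.05 CPM in GF-ND mouse 11, and 4.09 to 4.47 in the others. Acot1 reached 2.4 CPM in GF-HFD mouse 16, and 1.77 to 1.81 in the others.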

How the results depend on the processing

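Under the alternatives that changed 1 choice from the fit on 8 libraries, 0 members were called except without mice 11 and 13, where Ucp2, Acaa2 and Decr1 were (3 members, beside 858 of 25846 genes, or 3.32%). For each of these 3, mouse 13 was the lowest GF-HFD mouse and mouse 11 the highest GF-ND mouse. Members at an unadjusted p under 0.05 numbered 3 in limma-voom (7.38% of all genes), 9 with the lens score as covariate (15.1%), 9 without mice 11 and 19 (19.3%), 15 without mice 11 and 13 (22.6%), and 2 to 11 when 1 mouse was left out (4.62 to 23%). Members whose diets did not overlap numbered 1 with the filter of 10 CPM (4.62%), 7 without mice 11 and 19 (24.8% of all genes), 15 without mice 11 and 13 (28.4%), 9 without mice 11, 16 and 19 (34.5%), and 2 to 6 when 1 mouse was left out (6.45 to 20.2%). Pathway genes at an unadjusted p under 0.05 numbered 28 with the lens score (15.1% of all genes), 31 without mice 11 and 19 (19.3%), 36 without mice 11 and 13 (22.6%), 21 without mice 11, 16 and 19 (15.6%), and 3 to 38 when 1 mouse was left out (4.62 to 23%). The comparison without mice 11, 16 and 19 was chosen after seeing the data. The median log2 fold change of the members ran from 3e-04 (filter of 10 CPM) to 0.22 (without mice 11 and 13). The cause was not tested. Genes below a filter gave no value under it, and overlap was not counted for DESeq2, limma-voom and the lens score.

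Of 803 values of single genes under alternatives, 750 kept direction and side of the threshold, 5 passed it (Ucp2, Acaa2, Decr1, Acat1 and Oxct1 without mice 11 and 13) and 48 changed sign. For these 5, mouse 13 was the lowest GF-HFD mouse, and mouse 11 the highest GF-ND mouse in all but Oxct1. Cpt1a was -0.0608 without mice 11 and 13 and -0.005 without mice 11, 16 and 19, and Ppara was -0.0609 without mice 11 and 13. With library totals Cpt2 was -0.0161 and Etfa -0.0013. With the filter of 10 CPM Cpt2 was -0.0391, Etfa -0.0194 and Fabp3 -0.007. Acadm was 0.016 in limma-voom. Acads was 0.16 and Etfb 0.19 without mice 11 and 13, and Etfb was 0.0107 with the lens score and 0.11 without mice 11, 16 and 19. Angptl4 was 0.38 in limma-voom, 0.34 with the lens score, 0.85 without mice 11 and 19, 0.89 without mice 11 and 13 and 0.73 without mice 11, 16 and 19. With 1 mouse left out, log2 fold changes ran -0.0408 to 0.15 for Cpt1a, -0.0869 to 0.29 for Cpt2, -0.0185 to 0.39 for Acadl, -0.14 to 0.0885 for Acadm, -0.0077 to 0.46 for Decr1, -0.0268 to 0.21 for Etfa, -0.15 to 0.61 for Acot1, -0.0096 to 0.24 for Ppara, -0.023 to 0.12 for Fabp3, -0.32 to 0.022 for Acads, -0.25 to 0.13 for Etfb, -0.075 to 0.0229 for Etfdh, -0.0517 to 0.27 for Ehhadh and -0.48 to 0.79 for Angptl4. Pparg, Ucp3 and Pdk4 are limited by depth, and Cpt1b by depth and by its shared exons. No paired analysis was possible because the diets share no mouse numbers.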
